A study of Mus musculus with 8 samples.

Results

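The noncoding RefSeq transcripts of the mouse ventricle were taken from the authors' isoform table by 4 conditions. The reference nearest to the assembled transcript had to be a noncoding RefSeq entry, the length at least 200 bases, and the mean of the DKO and Ctrl levels at least 0.5 FPKM (read fragments scaled by transcript length and library size). Symbols that begin with Mir, Snor or Snhg, and Gas5, were left out. Of 35754 isoforms, 761 passed, and they belonged to 667 genes. The level threshold used the measured values of both genotypes, so a transcript could pass through the genotype in which it was higher, and counts over the 761 are descriptions.

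Levels come from cardiac ventricles, atria removed, of 8 mice aged 4.5 months. The 4 Ctrl animals were homozygous for floxed Sox5 and Sox6 (Sox5fl/fl, Sox6fl/fl) and carried no Cre. The 4 DKO (double knockout) animals had the same floxed alleles plus aMHC-Cre. The floxed alleles are shared by both groups, and Cre is carried by DKO alone, so loss of the 2 SoxD transcription factors and presence of Cre cannot be told apart. The aMHC promoter is active in cardiomyocytes, so fibroblasts, endothelial cells and immune cells of DKO ventricles keep both genes. Pressure overload appears in the title of the series, and no operation on these mice is recorded in the labels. Each genotype has 1 deposited level per transcript, pooled over its 4 animals. No spread between animals can be given for any level, and every q is that of Cuffdiff, the authors' differential test, as in the authors' deposited table.

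Long noncoding RNAs (lncRNAs) are transcripts without a long conserved reading frame. Some act in the nucleus as scaffolds of nuclear bodies or as regulators of the gene they are transcribed beside, and others act in the cytoplasm by binding proteins or small RNAs. In the heart, several have been studied as regulators of cardiac commitment, hypertrophy and contractile gene switching. Many others have no known role, and their level is reported here without one.

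The noncoding label covers several kinds of RNA. By accession, symbol or synonym, 755 of the 761 transcripts matched a gene in the RefSeq table for GRCm38.p6. Of the 761, 441 belonged to 390 genes that RefSeq lists as lncRNA genes. A further 226 were noncoding variants of 191 genes whose other isoforms have a coding reference. Another 63 came from 58 pseudogenes, 25 came from genes that RefSeq now lists as coding, and 6 had no entry. The set as a whole is therefore called noncoding RefSeq transcripts here, and "lncRNA" is kept for the 441. By their current RefSeq symbols, 8 transcripts would have been left out as Snhg genes and 4 as Mir genes, but the authors' table has older symbols for them.

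Promoter sequences of the called lncRNA genes are shown first, because their base composition is compared with that of uncalled lncRNA genes further on. A transcript is called where the authors' deposited table gives a q of at most 0.05. Each window runs from 250 bases before to 50 bases after the annotated start, 300 bases in all, from RefSeq on GRCm38.p6. That build differs from mm9, the build of the deposited tables. Sequences are written 5′ to 3′ on the gene's own strand, and capitals mark CG dinucleotides. Windows were matched for 7 of the 8 called lncRNA genes. The 3 that were higher in DKO were Hectd2os at chr19:36689430-36689729 (minus strand), 2900052N01Rik at chr9:46913353-46913652 (plus strand) and Eprn at chr13:73347335-73347634 (minus strand). The 4 that were lower were Gm19522 at chr16:42912021-42912320 (minus strand), 1110019D14Rik at chr6:13871319-13871618 (plus strand), 2310039L15Rik at chr10:95336026-95336325 (plus strand) and 4632428C04Rik at chr16:30008417-30008716 (plus strand). For contrast, the window of 1 abundant uncalled lncRNA, Oip5os1 at chr2:119594046-119594345 (plus strand), is given, picked without a rule.
Hectd2os: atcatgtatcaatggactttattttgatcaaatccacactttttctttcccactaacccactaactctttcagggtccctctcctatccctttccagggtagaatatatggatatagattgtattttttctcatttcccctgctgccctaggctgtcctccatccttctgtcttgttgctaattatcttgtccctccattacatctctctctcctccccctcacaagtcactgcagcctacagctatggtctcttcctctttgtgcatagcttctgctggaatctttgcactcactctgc
2900052N01Rik: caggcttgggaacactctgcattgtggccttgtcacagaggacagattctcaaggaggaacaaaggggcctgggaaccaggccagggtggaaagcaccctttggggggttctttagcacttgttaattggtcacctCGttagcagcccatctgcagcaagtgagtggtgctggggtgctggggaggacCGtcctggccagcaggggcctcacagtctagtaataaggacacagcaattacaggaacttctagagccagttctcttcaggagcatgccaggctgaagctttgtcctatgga
Eprn: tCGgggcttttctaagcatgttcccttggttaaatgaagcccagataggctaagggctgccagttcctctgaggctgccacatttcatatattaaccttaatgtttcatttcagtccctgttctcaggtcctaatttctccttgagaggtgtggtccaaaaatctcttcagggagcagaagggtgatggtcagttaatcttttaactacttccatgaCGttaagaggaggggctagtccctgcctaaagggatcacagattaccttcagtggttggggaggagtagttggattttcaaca
Gm19522: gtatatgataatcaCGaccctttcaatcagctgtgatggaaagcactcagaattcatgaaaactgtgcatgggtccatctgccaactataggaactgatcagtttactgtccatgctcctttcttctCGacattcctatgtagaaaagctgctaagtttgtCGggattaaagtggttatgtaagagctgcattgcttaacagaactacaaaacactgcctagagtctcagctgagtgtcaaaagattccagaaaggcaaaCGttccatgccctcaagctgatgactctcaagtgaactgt
1110019D14Rik: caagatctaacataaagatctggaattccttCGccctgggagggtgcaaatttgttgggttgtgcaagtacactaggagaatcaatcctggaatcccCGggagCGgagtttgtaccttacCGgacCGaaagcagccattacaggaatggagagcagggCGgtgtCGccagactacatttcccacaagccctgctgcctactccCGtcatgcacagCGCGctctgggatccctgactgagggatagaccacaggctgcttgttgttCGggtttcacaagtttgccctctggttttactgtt
2310039L15Rik: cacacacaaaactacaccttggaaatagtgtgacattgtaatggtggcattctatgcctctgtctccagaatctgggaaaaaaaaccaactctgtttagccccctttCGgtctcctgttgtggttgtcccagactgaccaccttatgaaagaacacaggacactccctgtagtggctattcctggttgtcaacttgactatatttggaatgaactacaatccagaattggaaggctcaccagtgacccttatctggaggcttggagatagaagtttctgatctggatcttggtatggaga
4632428C04Rik: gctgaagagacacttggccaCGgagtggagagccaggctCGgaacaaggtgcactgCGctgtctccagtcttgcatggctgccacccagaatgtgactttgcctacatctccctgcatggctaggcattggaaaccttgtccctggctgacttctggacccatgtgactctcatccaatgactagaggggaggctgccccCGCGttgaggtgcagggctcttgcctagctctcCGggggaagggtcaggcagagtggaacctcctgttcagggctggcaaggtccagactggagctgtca
Oip5os1: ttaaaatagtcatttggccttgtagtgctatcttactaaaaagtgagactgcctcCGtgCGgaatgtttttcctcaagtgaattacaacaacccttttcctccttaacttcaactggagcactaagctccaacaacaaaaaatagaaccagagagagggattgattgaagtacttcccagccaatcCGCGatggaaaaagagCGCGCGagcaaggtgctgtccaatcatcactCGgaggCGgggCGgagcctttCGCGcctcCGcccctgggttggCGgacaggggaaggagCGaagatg
The windows of Hectd2os, 2310039L15Rik, 2900052N01Rik and Eprn held 0, 1, 2 and 2 CG dinucleotides. Those of Gm19522, 4632428C04Rik and 1110019D14Rik held 4, 6 and 11, and the window of Oip5os1 held 15. Oip5os1 does not stand for all abundant uncalled lncRNA genes. In the CG-richest window of each gene, Mhrt held 1, C130080G10Rik 2, AA465934 18 and Atcayos 20.

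Most noncoding transcripts were low and close to equal in both genotypes. Their median level was 1.98 FPKM in DKO and 1.98 FPKM in Ctrl, and 196 had a mean under 1 FPKM. A mean of at least 10 FPKM was reached by 93 and of at least 100 FPKM by 9. Coding transcripts selected by the same length and level numbered 19154, with medians of 5.87 and 5.82 FPKM, and 3.07% of those tested were called. Cuffdiff tested 606 of the 761. Over these, the median log2 ratio of DKO over Ctrl was -0.02, beside -0.01 over all isoforms at the same level. In the authors' deposited table, 13 of the 606 (2.15%) had a q of at most 0.05, 4 higher and 9 lower in DKO. Among all 18490 tested isoforms the share called was 3.02%, with 1.9% called higher and 1.12% called lower. The share among the noncoding transcripts called in either direction is thus near the background and says nothing particular about them. By direction, calls in the set were mostly lower, and those over all isoforms were mostly higher (351 against 208 lower). This difference was not tested. At an unadjusted p under 0.05 in the authors' deposited table there were 39 tested noncoding transcripts, of which 26 were not called.

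**Figure D1:**
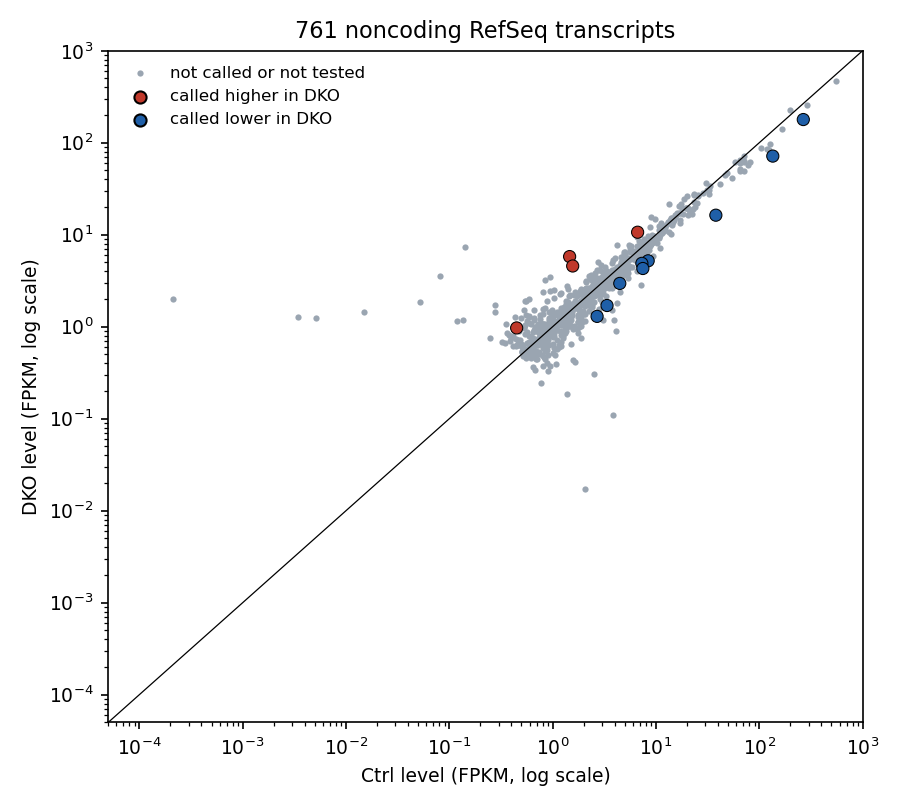
Level in DKO (vertical) against level in Ctrl (horizontal) of the 761 noncoding RefSeq transcripts, in FPKM on log scales, with 1 pooled value per genotype and the line of equal levels. The 4 transcripts called higher in DKO (red) and the 9 called lower (blue) lie off the line by less than a 4-fold difference, and the transcripts farthest from the line were not called.

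The scatter of DKO against Ctrl levels shows where the calls lie. All 13 called transcripts were the only isoform of their gene. Among 397 such sole isoforms, 307 were tested and 4.23% called. None of the 299 tested transcripts that share their gene with other isoforms was called. For coding transcripts of the same length and level, 5.88% of sole isoforms and 1.23% of the others were called. The dependence of calls on isoform number was thus also present among coding transcripts.

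Of the 13, 5 were lncRNAs with lower levels in DKO. Gm19522, a 2530-base transcript at chr16:42884483-42912183 in mm9, was at 1.296 FPKM in DKO and 2.69 FPKM in Ctrl. The log2 ratio was -1.06 (q = 0.00312 in the authors' deposited table). Its nearest gene with a coding reference was Zbtb20, a zinc finger repressor, which lay 335213 bases away. Zbtb20 was itself lower, at 5.62 against 7.41 FPKM (gene q = 0.0299 in the authors' deposited table).

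The transcript 1110019D14Rik, at chr6:13821569-13846421, was at 1.70 FPKM in DKO and 3.36 FPKM in Ctrl, a log2 ratio of -0.98 (q = 0.00312 in the authors' deposited table). Its start lies 51 bases from that of 2610001J05Rik, which is read in the opposite direction. That neighbour was at 22.8 and 23.4 FPKM (gene q = 0.956 in the authors' deposited table). So the lncRNA of this head-to-head pair was called and its partner was not.

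D7Ertd715e, at chr7:67114463-67119317, is listed by RefSeq under Snhg14, the long imprinted transcript that runs from the Snrpn region towards Ube3a. It was at 5.21 FPKM in DKO and 8.41 FPKM in Ctrl, a log2 ratio of -0.69 (q = 0.00312 in the authors' deposited table). Snrpn,Snurf, the imprinted gene pair for a spliceosomal protein and a small upstream protein, ends 8069 bases away. It was at 36.9 and 64.8 FPKM, a log2 ratio of -0.81 (gene q = 0.00158 in the authors' deposited table). Both neighbours were thus lower in DKO by a similar ratio. Ube3a, a ubiquitin ligase gene, was at 17.7 and 19.9 FPKM, and Ndn, an imprinted growth regulator, was at 7.58 and 5.91 FPKM. Neither was called, with gene q values of 0.458 and 0.143 in the authors' deposited table.

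The remaining lncRNAs with lower levels were 2310039L15Rik and 4632428C04Rik. The first, at chr10:94798910-94825850, was at 4.30 FPKM in DKO and 7.47 FPKM in Ctrl, a log2 ratio of -0.80 (q = 0.0458 in the authors' deposited table). Cradd, an adaptor protein of apoptosis signalling, lies 12178 bases from it. Cradd was at 5.61 and 7.66 FPKM and was also called lower as a gene (q = 0.0373 in the authors' deposited table). The second, at chr16:30008753-30021516, was at 2.96 FPKM in DKO and 4.47 FPKM in Ctrl, a log2 ratio of -0.60 (q = 0.0147 in the authors' deposited table). Its nearest coding gene, 43926 bases away, was the Notch target Hes1, at 24.8 and 25.8 FPKM and not called. Of the nearest coding genes of these 5 lncRNAs, Zbtb20, Snrpn,Snurf and Cradd were called lower and Hes1 was not. Of all tested genes 3.06% were called lower. Of the 476 genes of the set without a coding reference, 25 had a called nearest coding gene, 17 of these lower. That of 1110019D14Rik by listed locus was Gpr85, at 0.307 and 0.123 FPKM, which Cuffdiff did not test.

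LncRNAs with higher levels in DKO numbered 3. D630045M09Rik, listed by RefSeq as Eprn (Ephemeron, a lncRNA studied in embryonic stem cells), lies at chr13:73482113-73484832. It was at 4.58 FPKM in DKO and 1.57 FPKM in Ctrl, a log2 ratio of 1.55 (q = 0.00312 in the authors' deposited table). The nearest coding gene was Mrpl36, a mitochondrial ribosomal protein gene 12486 bases away, at 47.8 and 51.9 FPKM and not called. Eprn thus had the highest ratio among the called lncRNAs without a call in the nearest coding gene.

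Hectd2os (1500017E21Rik), on the opposite strand within the Hectd2 gene region, was at 10.7 FPKM in DKO and 6.65 FPKM in Ctrl. The log2 ratio was 0.68 (q = 0.00312 in the authors' deposited table). Hectd2, which encodes a ubiquitin ligase of the HECT family, was at 1.10 and 0.946 FPKM and was not called (gene q = 0.842 in the authors' deposited table). The table gives both genes 1 locus, chr19:36629129-36763969, so these coordinates are not those of Hectd2os alone. Per length, the lncRNA was the more abundant of the pair in both genotypes.

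The third, 2900052N01Rik at chr9:46721686-46735449, was the lowest of the called transcripts. It was at 0.971 FPKM in DKO and 0.449 FPKM in Ctrl, a log2 ratio of 1.11 (q = 0.0147 in the authors' deposited table). With 1 FPKM added to both levels the log2 ratio was 0.44, so its size depends on levels close to 0. Its nearest coding gene, Gm4791, lay 71374 bases away and was not tested.

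**Figure D2:**
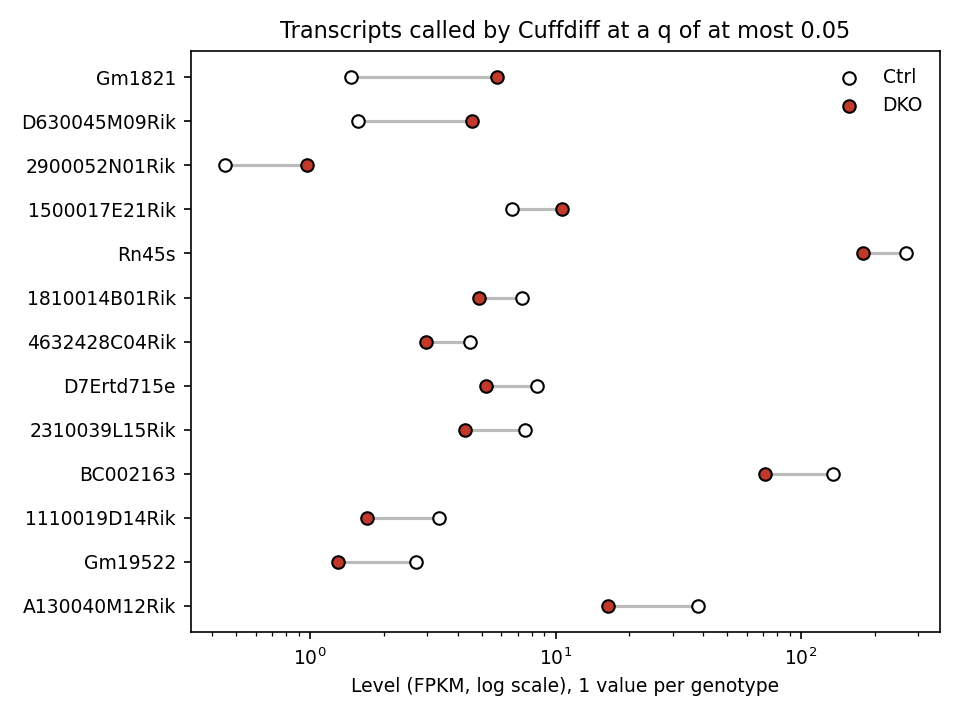
Levels of the 13 called noncoding transcripts in Ctrl (open) and DKO (filled), in FPKM on a log scale, ordered by log2 ratio, with 1 pooled value per genotype and no error bars. Ratios run from -1.22 for A130040M12Rik at the bottom to 1.99 for Gm1821 at the top.

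Called pseudogene transcripts numbered 3, and each was set beside the coding gene whose transcript it matched best. Gm1821 (Ubb-ps), a processed copy of the polyubiquitin gene Ubb at chr14:46703702-46704632, was at 5.79 FPKM in DKO and 1.46 FPKM in Ctrl. The log2 ratio was 1.99 (q = 0.00312 in the authors' deposited table). Ubb itself was at 81.0 and 83.8 FPKM and was not called (gene q = 0.921 in the authors' deposited table). The transcripts are 97.7% identical over 617 bases. The sources used here do not give how reads were divided between such copies, so the level of each pseudogene is uncertain.

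BC002163 (Ndufs5-ps), a copy of the complex I subunit gene Ndufs5, went the opposite way. This 500-base transcript at chr16:42955693-42956192 was at 71.6 FPKM in DKO and 135 FPKM in Ctrl, a log2 ratio of -0.92 (q = 0.00312 in the authors' deposited table). Ndufs5 was at 241 and 259 FPKM and was not called (gene q = 0.744 in the authors' deposited table), and the copies are 99.4% identical over 319 bases. BC002163 lies 43509 bases from Gm19522, which was also lower in DKO.

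The last of the 3, 1810014B01Rik at chr10:86148272-86152699, was at 4.89 FPKM in DKO and 7.31 FPKM in Ctrl, a log2 ratio of -0.58 (q = 0.0167 in the authors' deposited table). Its closest coding transcript, of 1190007I07Rik, matched 29.9% of its length at 96.3% identity, which does not show that it copies that gene. The gene 1190007I07Rik was at 19.1 and 21.1 FPKM and was not called (gene q = 0.787 in the authors' deposited table). Hsp90b1, the chaperone of the endoplasmic reticulum, lay 886 bases from 1810014B01Rik at 187 and 170 FPKM and was not called.

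Across all pseudogene genes, levels were set beside those of the best-matching coding gene where a transcript could be aligned. Of 57 pseudogene symbols, 55 had a GENCODE M21 transcript, 49 aligned to a coding transcript and 25 did so at 95% identity or more. The best match was kept whatever its length, so these counts include short matches that do not show a parent gene. The match of Zfp862 to Pcnp, for example, covered 1.68% of its transcript. Gm12070, a copy of the glycolytic gene Gapdh at 99.9% identity, was at 30.5 and 32.9 FPKM, and Gapdh was at 89.0 and 95.9 FPKM. Gm2011, a copy of Abhd18 at 99.1% identity, was at 4.45 and 5.86 FPKM and not called, while Abhd18 was called lower at 30.6 and 41.0 FPKM (gene q = 0.00158 in the authors' deposited table). Gm10653 matched the ribosomal protein gene Rps2 at 91.3% identity. It was at 3.09 and 3.67 FPKM, while Rps2 was called higher at 75.8 and 36.7 FPKM (gene q = 0.00158 in the authors' deposited table). Copies and parents therefore did not always have the same calls. These 3 examples were chosen after their values were seen.

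The 2 called transcripts with no RefSeq entry were both lower in DKO. Rn45s, the ribosomal RNA precursor at chr17:39979942-39985774, was at 179 FPKM in DKO and 267 FPKM in Ctrl, a log2 ratio of -0.58 (q = 0.00312 in the authors' deposited table). Ribosomal RNA genes are repeated in the genome, so the level at this single listed copy is uncertain. A130040M12Rik was at 16.3 FPKM in DKO and 38.0 FPKM in Ctrl, a log2 ratio of -1.22, the lowest among the called (q = 0.00312 in the authors' deposited table). Its listed locus, chr13:62184507-62397849, also holds the zinc finger gene Zfp808, at 1.10 and 0.862 FPKM and not called.

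The best known nuclear lncRNAs were abundant and not called. Neat1, an RNA of nuclear paraspeckles, had the highest level of the 761, at 468 FPKM in DKO and 550 FPKM in Ctrl for the 3177-base isoform. Its only other isoform in the set, of 3034 bases, was at 56.7 and 77.7 FPKM, so the set holds no longer Neat1 isoform. Malat1, an abundant RNA of nuclear speckles, was at 143 and 164 FPKM for its 6982-base isoform and at 28.0 and 23.3 FPKM for the other. None of these 4 isoforms was called, with q values of 0.494, 0.859, 0.725 and 0.947 in the authors' deposited table. The proteins of paraspeckles were looked at beside Neat1. Of 16 such genes tested, 0 were called, with a median log2 ratio of -0.04 at the gene level. Among them Hnrnpk, an RNA-binding protein gene, was at 76.1 and 75.4 FPKM.

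Mhrt (D830015G02Rik in the table), the antisense transcript of the Myh7 locus studied as a protective RNA of the stressed heart, was at 97.8 FPKM in DKO and 127 FPKM in Ctrl. The log2 ratio was -0.38 (q = 0.913 in the authors' deposited table). Myh7, the slow myosin heavy chain, was at 287 and 246 FPKM (gene q = 0.264 in the authors' deposited table). The table joins both in 1 listed locus. C130080G10Rik shares its listed locus with Actc1, the cardiac actin gene, which was at 12506 and 13546 FPKM and not called. Its 3 abundant isoforms were at 85.6, 62.3 and 49.3 FPKM in DKO and at 119, 81.0 and 65.2 FPKM in Ctrl. The other isoform was at 7.31 FPKM in DKO and 0.143 FPKM in Ctrl. All 4 had q values between 0.815 and 0.987 in the authors' deposited table. AA465934 was at 83.0 and 125 FPKM (q = 0.857 in the authors' deposited table). The libraries were made with a kit that does not mark strand, so reads of a lncRNA and of an overlapping gene on the other strand cannot be told apart.

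LncRNAs known from heart development, growth and stress were detected but not called. The list of 23 genes had 8 present, with 10 transcripts, of which 8 were tested and 0 called. Of the 10, tested or not, 7 had a ratio below 0, and the median log2 ratio of all 10 was -0.05. Over the tested noncoding transcripts of the whole set, without the untested ones, the median was -0.02. Bvht (LOC545261 in the table), which is needed for cardiac commitment of embryonic stem cells, was at 13.3 FPKM in DKO and 13.7 FPKM in Ctrl. Oip5os1 (Cyrano), which promotes decay of a microRNA, was at 61.1 and 70.8 FPKM for one isoform and at 30.9 and 31.3 FPKM for the other. Norad, which binds Pumilio proteins in the cytoplasm, was at 11.0 and 12.1 FPKM. Tug1 was at 12.1 and 11.4 FPKM, and Dleu2, a microRNA host, was at 4.13 and 4.13 FPKM. Sra1, an activator RNA of steroid receptors whose gene also codes for a protein, had a noncoding variant at 1.14 and 1.75 FPKM. The q values of these 7 transcripts ran from 0.596 to 0.999 in the authors' deposited table. Dnm3os, the antisense RNA that hosts microRNAs within Dnm3, was at 0.850 and 0.779 FPKM and was not tested.

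Imprinted lncRNAs other than D7Ertd715e did not pass the test. The list of 16 genes had 6 present, with 10 transcripts, of which 9 were tested and 0 called. The median log2 ratio of the 10 was 0.07. H19, which is paired with the growth factor gene Igf2, was at 4.34 FPKM in DKO and 5.16 FPKM in Ctrl (q = 0.583 in the authors' deposited table), and Igf2 was at 6.04 and 6.12 FPKM. Meg3 and Rian, maternally expressed RNAs of the Dlk1 and Dio3 domain, were at 5.31 and 4.87 FPKM and at 2.00 and 1.97 FPKM. The protein genes Dlk1 and Dio3 themselves were at 0.0429 and 0.0495 FPKM in DKO and were not tested. Airn, which silences Igf2r in cis, was at 13.4 and 11.2 FPKM, and Igf2r was at 35.4 and 36.9 FPKM. Peg13 was at 19.3 and 20.3 FPKM. The noncoding Gnas transcript was at 2.36 and 4.48 FPKM (q = 0.946 in the authors' deposited table).

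Imprinted protein genes were counted from a list of 26, of which 15 were tested as genes. Calls were made for 2 higher and 2 lower, where 4.3% and 3.06% of all tested genes were called. The 2 higher were Dcn, a matrix proteoglycan (465 against 376 FPKM, q = 0.0217 in the authors' deposited table), and Gatm, an enzyme of creatine synthesis (5.23 against 3.62 FPKM, q = 0.00926 there). The lower were Snrpn,Snurf, as above, and Ppp1r9a, an actin-binding scaffold (5.29 against 6.85 FPKM, q = 0.00926 in the authors' deposited table). Dcn is also among the fibroblast markers counted below, so its call enters both lists. Whether the listed genes are imprinted in the ventricle was not tested.

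The X-linked lncRNA list held 8 symbols, some of them older names of the same gene. The set held 3 of its genes, and none was called. Tsix, at 0.297 and 0.229 FPKM, and Xist, at 0.140 and 0.117 FPKM for its higher isoform, lay under the level threshold. Firre, which takes part in the nuclear placing of chromosomes, had isoforms at 6.99 against 6.96 FPKM and 5.13 against 5.06 FPKM. Ftx and Jpx, both of the X-inactivation centre, were at 0.701 against 0.670 FPKM and at 0.652 against 0.710 FPKM and were not tested. On the sex chromosomes 28 noncoding transcripts were present, of which 17 were tested and 0 called, with log2 ratios of the tested from -0.58 to 1.13.

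Partners of structural noncoding RNAs gave 1 call. Of 10 tested protein genes of the RNA-cutting enzymes RNase P and MRP, Rpp25 was called higher, at 2.63 against 0.997 FPKM (gene q = 0.00158 in the authors' deposited table). With 4.3% of all tested genes called higher, 1 call in 10 says nothing of the list. Of 10 tested genes of Polycomb repressive complex 2, a histone methyltransferase that binds many lncRNAs, 0 were called and the median log2 ratio was -0.07. Of 7 tested genes of the transcription elongation factor P-TEFb and of the 7SK RNA complex, which holds that factor in check, 0 were called.

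Promoter CG content was counted for the lncRNA genes whose called windows are shown above. Over all RefSeq windows the median was 7 CG dinucleotides, and over windows of RefSeq lncRNA genes it was 4, so 4 of the 7 called windows lay under the second median, 1 at it and 2 above it. A window was found for 309 lncRNA genes of the set, which were chosen by level, with a median of 16, of which 240 were tested. A gene with several windows was given the count of its CG-richest window, for lncRNA and coding genes alike. The median of these counts over the tested genes was 14.5 CG dinucleotides. All 7 genes called at the isoform level lay under this median, with a range from 0 to 11 and a median of 2. Split at that median, 7 of 120 CG-poor genes (5.83%) and 0 of 120 CG-rich genes had a called isoform. At the gene level, Snhg16 (1810032O08Rik), with 22 CG dinucleotides, was also called. So were 9230112J17Rik, A530013C23Rik and Mir22hg (2210403K04Rik), with 4, 10 and 12. The median of the mean levels was 2.72 FPKM for the CG-poor and 3.46 FPKM for the CG-rich genes. Among coding genes, called as genes, 285 of 2029 (14.05%) with a window under the same number and 344 of 6288 (5.47%) with a window above it were called, where 7.36% of all tested genes were. The split was chosen after the values were seen and was not tested. A higher share of calls in CG-poor windows was thus present among coding genes too, though there the calls are of genes and not of isoforms.

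**Figure D3:**
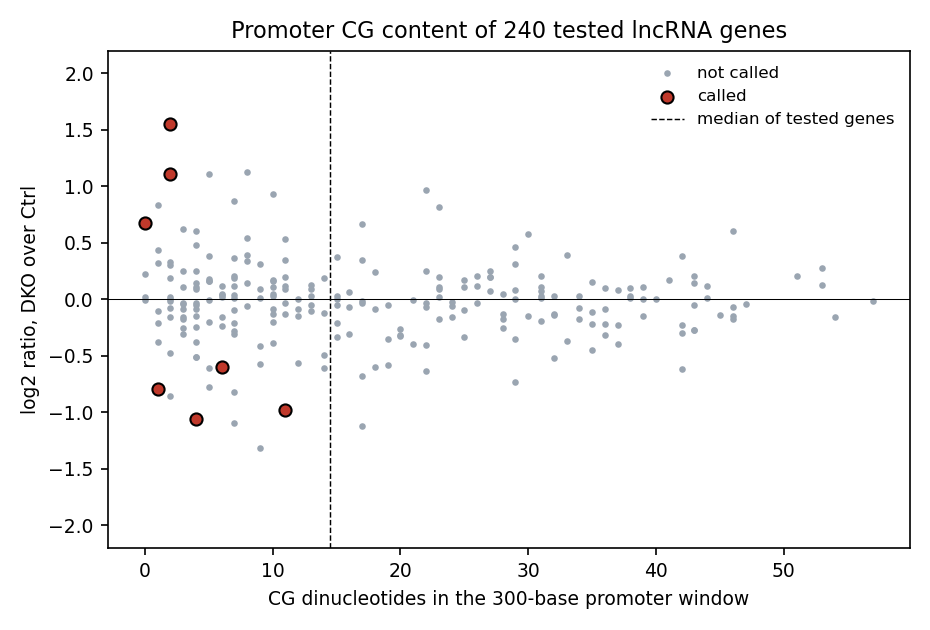
Log2 ratio of DKO over Ctrl (vertical) against the number of CG dinucleotides in the 300-base promoter window (horizontal) for 240 tested lncRNA genes. A gene with several windows is drawn at its CG-richest, and the median of 14.5 is a dashed line. The 7 genes called at the isoform level (red) lie at 11 CG dinucleotides or fewer.

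The 7 windows of called lncRNA genes held 0 matches to AACAAT or its reverse complement ATTGTT, a core that Sox proteins bind. Of 32851 RefSeq windows of the same length 10.7% held it on either strand, as did 13.8% of windows of RefSeq lncRNA genes. Among windows of lncRNA genes in the set, 18 of 335 (5.37%) held it. The letters TATAAA or their reverse complement TTTATA were found in 7.76% of these 335 and in 13.6% of all windows. A missing match says only that these letters are not in this window.

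Head-to-head arrangement with a coding gene was common among the lncRNA genes. Of 311 with an annotated start, 81 (26.0%) had the start of a coding gene within 1000 bases in the opposite direction, at a median of 162 bases. Of 8310 tested coding genes, 12.9% had such a partner. In 58 pairs both genes were tested. In these, 1110019D14Rik was the only lncRNA called, and Cox10, a heme synthesis enzyme, was the only coding gene called. Cox10 was at 31.9 and 39.3 FPKM (gene q = 0.0266 in the authors' deposited table), and its partner 2810001G20Rik, starting 12 bases away, was at 8.62 and 9.05 FPKM. With 1 call on each side, the pairs hold no information on shared calls.

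Across the 58 pairs, Pearson's r of the gene-level log2 ratios was 0.30 and Spearman's rho was 0.33, and 33 pairs had the same sign. Without the pair of 5730408K05Rik, whose gene level was 38.7 in DKO and 0.613 FPKM in Ctrl, r was 0.29 and rho 0.30 over 57 pairs. Both genes of a pair come from the same libraries, and where the transcripts overlap near their starts, reads without strand can count for either. The correlation is given as a description.

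**Figure D4:**
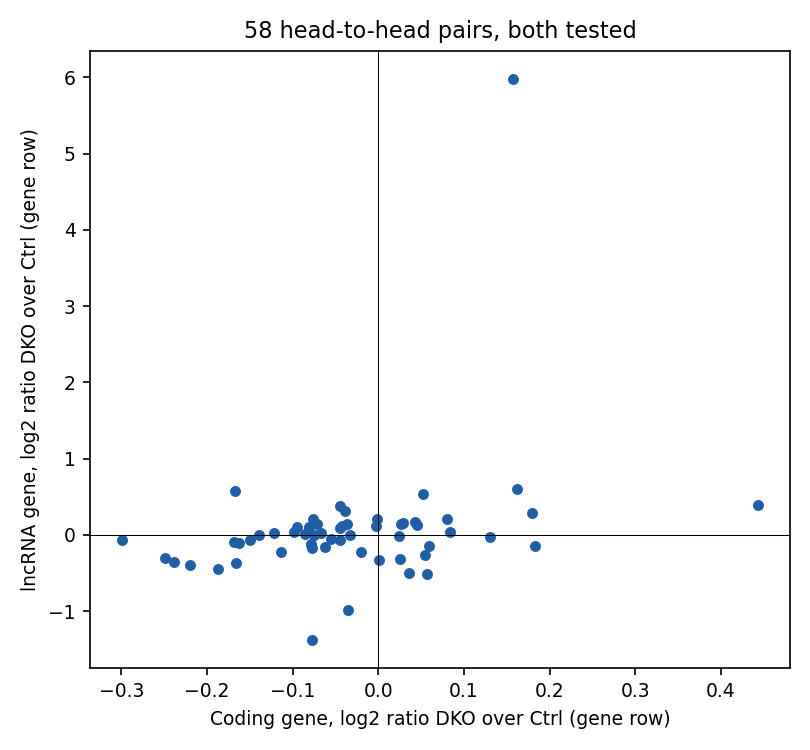
Log2 ratio of DKO over Ctrl of the lncRNA gene (vertical) against that of the coding gene (horizontal) in 58 head-to-head pairs, both at the gene level. Points spread over all 4 quadrants, 33 pairs have the same sign, and 5730408K05Rik lies apart at a log2 ratio of 5.98.

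Overlap with coding genes touched a large share of the set. Of 476 genes with no coding reference, 215 touched the listed locus of another coding gene. A further 137 lay within 5000 bases of one. Transcripts in shared loci numbered 243, of which 192 were tested and 2 (1.04%) called. Of 292 in loci of their own, 223 were tested and 11 (4.93%) called. The difference between these shares was not tested.

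Several uncalled lncRNAs shared a locus with a coding gene that was called, and these examples were chosen after their values were seen. A630019I02Rik was at 49.8 FPKM in DKO and 70.8 FPKM in Ctrl (q = 0.559 in the authors' deposited table). It shares its locus with Cmya5, a costamere protein of muscle, at 78.2 and 105 FPKM (gene q = 0.00407 in the authors' deposited table). AI507597 was at 7.15 and 10.9 FPKM beside Tmem82, at 5.59 and 9.13 FPKM, and 4833422C13Rik was at 1.11 and 1.91 FPKM beside Ssbp2, at 3.13 and 6.08 FPKM. These 3 lncRNAs had lower levels in DKO, as did the coding genes, which were called. Gm15350 was at 14.9 and 9.84 FPKM beside Atp11a, a lipid flippase that was called higher at 41.3 and 31.6 FPKM. Atcayos was at 51.5 and 64.4 FPKM beside Itgb1bp3, a nicotinamide riboside kinase that was called higher at 20.1 and 10.1 FPKM. How far reads of the coding genes enter these values was not tested.

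Antisense symbols in RefSeq (ending in os) marked 44 transcripts of 40 lncRNA genes. Of 37 tested, Hectd2os was called higher and 0 were called lower, and the median log2 ratio was -0.03. Slfn5os was at 33.6 and 33.7 FPKM, Lppos at 18.9 and 22.7 FPKM and Ppifos at 10.7 and 10.9 FPKM. None of these 3, named after their values were seen, was called.

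Noncoding variants of coding genes had a wide spread of ratios with 0 calls. All 226 belonged to genes with several isoforms, and 191 were tested. Their interquartile range of log2 ratios ran from -0.36 to 0.48, against -0.18 to 0.16 for sole isoforms. A fold of at least 2 was seen in 16.8% of the variants and in 3.26% of the sole isoforms. The same held among coding transcripts of the same length and level, with 14.7% of those that were 1 of several isoforms and 0.971% of sole isoforms. A variant made up a median of 20.1% of its gene's FPKM, under 10% in 72 cases and over 50% in 31. Abundant ones were those of Nnt, the mitochondrial transhydrogenase (259 and 292 FPKM, no test result), Atp2a2, the calcium pump of the sarcoplasmic reticulum (87.3 and 105 FPKM), and Chpt1, an enzyme of phosphatidylcholine synthesis (62.8 and 71.8 FPKM).

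The 16 tested transcripts with a fold of at least 4 all lay in genes with several isoforms. Their gene totals all differed by less than 1.5-fold, and 0 of the 16 were called. A variant of the ubiquitin ligase gene Marchf2, whose older symbol the table holds as the date 2-Mar, was at 0.0173 FPKM in DKO and 2.06 FPKM in Ctrl. Its gene was at 82.1 and 86.7 FPKM. In the pseudogene Pisd-ps1 one isoform was at 0.111 and 3.81 FPKM and the other at 26.1 and 20.2 FPKM, and the gene total was 26.2 and 24.0 FPKM. A variant of the acetyltransferase gene Kat5 was at 0.306 and 2.49 FPKM within a total of 14.3 and 14.9 FPKM. A variant of Ranbp3, a Ran-binding protein gene, was at 0.409 against 1.66 FPKM. Ratios of 4-fold or more thus belonged to genes with several isoforms and with totals under 1.5-fold apart. Below 4-fold, a variant of Klc2, a kinesin light chain gene, was at 0.436 against 1.59 FPKM. Also below 4-fold, the lncRNA gene 2210408F21Rik had an isoform at 2.81 and 7.14 FPKM within a total of 30.5 and 36.5 FPKM.

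In the other direction, a variant of Osbpl1a, an oxysterol-binding protein gene, was at 3.53 FPKM in DKO and 0.0814 FPKM in Ctrl within a total of 36.9 and 43.7 FPKM. Variants of Trub2, a pseudouridine synthase, and Zfp207, a spindle and splicing factor, were at 3.23 against 0.847 FPKM and at 3.45 against 0.940 FPKM. Variants of Arhgap1, a GTPase-activating protein gene, had ratios of both signs, with 0.892 against 4.11 FPKM for one and 1.51 against 0.524 FPKM for another. Variants of Zfp821, Rabggtb and Gm7367 were at 1.88 against 0.544 FPKM, 1.93 against 0.559 FPKM and 1.98 against 0.595 FPKM. Only the variant of Osbpl1a and the variant of Arhgap1 that was lower in DKO reached 4-fold, and none of these variants was called.

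**Figure D5:**
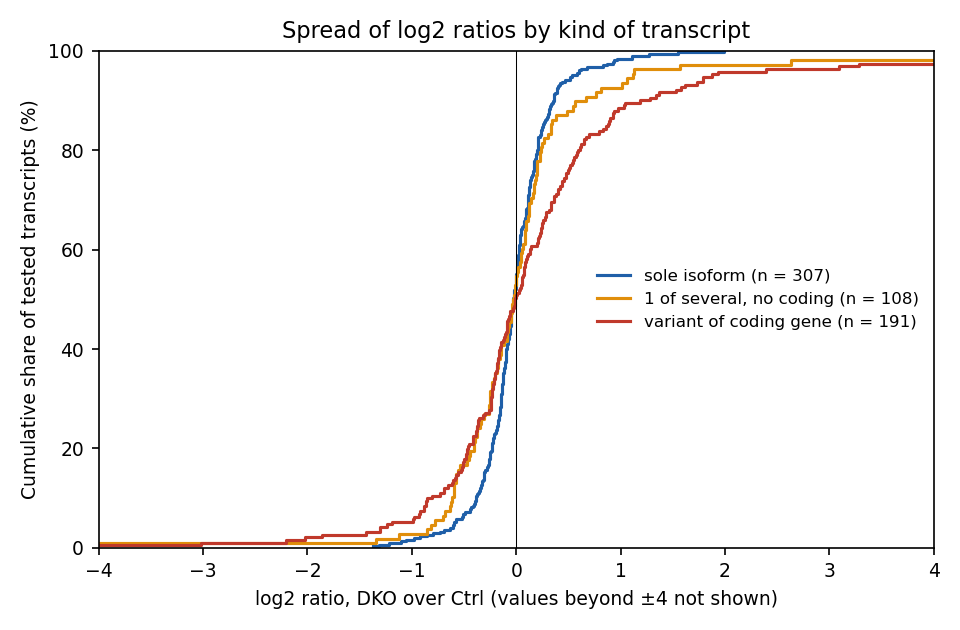
Cumulative share of tested noncoding transcripts (vertical, percent) by log2 ratio of DKO over Ctrl (horizontal) for 307 sole isoforms, 108 of several isoforms in genes with no coding reference and 191 variants of coding genes. The curve of sole isoforms is the steepest, and values beyond 4 on either side are not drawn.

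The cumulative curves show the narrower spread of sole isoforms. Level mattered for this spread as well. Between the 5th and 95th percentile, the log2 ratios of tested sole isoforms ran from -1.11 to 1.12 at a mean of 0.5 to 1 FPKM and from -0.59 to 0.51 at 1 to 3 FPKM. At a mean of at least 10 FPKM they ran from -0.56 to 0.29. Of 103 sole isoforms in the lowest class 20 were tested, whereas all 47 in the highest class were.

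Of the genes that RefSeq now lists as coding, several make microproteins, and 0 of their 25 transcripts were called. Mrln, which encodes myoregulin, a small membrane protein that restrains the muscle calcium pump, was at 1.20 FPKM in DKO and 3.09 FPKM in Ctrl. Its log2 ratio of -1.37 was the lowest of all tested sole isoforms, but its q was 0.247 in the authors' deposited table. Mtln, for the mitochondrial microprotein mitoregulin, was at 35.3 and 42.1 FPKM (q = 0.370 in the authors' deposited table). Nbdy, whose product acts on P-bodies, was at 19.3 and 19.6 FPKM, and Pigbos1, for a mitochondrial outer membrane microprotein, was at 26.5 and 25.5 FPKM. Smim4 was at 71.8 and 71.4 FPKM, and 1810058I24Rik, the most abundant of this kind, was at 224 and 197 FPKM. Names in this group other than Mrln, Smim4 and 1810058I24Rik were chosen after their values were seen.

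More genes of the set were called at the gene level than isoforms. Of the 667 genes, 571 were tested as genes, and 13 were called higher and 14 lower in DKO (4.73%). Among all tested genes 7.36% were called, 4.3% higher and 3.06% lower. All 13 genes of called isoforms were among the 27, and 8 of the 27 were coding genes that have a noncoding variant. A gene total is tested with more fragments and is adjusted over fewer features than an isoform. Among genes with a sole isoform, the gene level added Tmem181b-ps (10.7 against 13.3 FPKM), AI662270 (1.54 against 0.804 FPKM) and A530013C23Rik (1.04 against 0.544 FPKM). Their gene q values were 0.0377, 0.0457 and 0.0440 in the authors' deposited table. Mir22hg (2210403K04Rik), host of a microRNA, was called higher as a gene at 29.8 and 14.6 FPKM, while its long transcript was at 13.8 and 14.6 FPKM. The gene totals of 1810032O08Rik (Snhg16) and Rabggtb were further apart, with log2 ratios of 2.41 and 2.55, and were called higher (q = 0.00158 for each in the authors' deposited table). The most abundant transcript of the set was at 1.80 and 2.39 FPKM in Snhg16, within a total of 21.6 and 4.06 FPKM. In Rabggtb it was at 21.6 and 13.3 FPKM, within a total of 410 and 70.2 FPKM. The totals of Mir22hg, Snhg16 and Rabggtb thus also hold isoforms outside the set. None of the long noncoding transcripts of these genes was called.

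Markers of fibroblasts and macrophages were higher in DKO. As gene-level sums in DKO and Ctrl, 12 cardiomyocyte markers were at 66971 and 76757 FPKM with 0 called, and 11 were lower in DKO. Of all tested genes 4.3% were called higher. Of 13 fibroblast markers 9 were called higher, with sums of 1570 and 1252 FPKM, and of 14 macrophage markers 11 were called higher, with sums of 430 and 279 FPKM. The 12 endothelial markers summed to 566 and 599 FPKM with 0 called. None of these markers was at 0 in either genotype. The 7 atrial markers summed to 1327 and 499 FPKM, most of it Nppa, the natriuretic peptide gene that stressed ventricles also express (1303 and 464 FPKM). Of 4 atrial markers tested, Nppa and Dkk3 were called higher, Kcnj3 was called lower and Myl4, at 3.58 and 3.69 FPKM, was not called. Myl7 and Sln were at 0.140 and 0.0671 FPKM in DKO and 0.192 and 0.367 FPKM in Ctrl. Sox6 was at 1.69 and 3.39 FPKM (gene q = 0.00158 in the authors' deposited table), and Sox5 was at 0.497 and 0.369 FPKM, not tested. In bulk tissue, fewer cells of a type and less RNA per cell cannot be told apart, and the part of these shifts in the 13 calls was not tested.

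At the threshold itself, the nearest noncoding transcripts below a mean of 0.5 FPKM were Zfp133-ps, Nip7 and Tmem179b, at 0.497, 0.497 and 0.499 FPKM. Just above it were 5430405H02Rik, BC037704 and 0610005C13Rik, at 0.503, 0.503 and 0.505 FPKM. None of these 6 was tested. Of 2723 noncoding transcripts of at least 200 bases, 1949 lay under the threshold, and 780 were listed at 0 in both genotypes.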

How the data were processed

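Per the submitters' processing notes, single-end reads were aligned to mm9 with TopHat2 2.0.9, and Cufflinks and Cuffdiff were both of version 2.1.1. For the annotation and settings, the sources used here give no value. The deposited tables hold 1 FPKM value per genotype, pooled by the authors over 4 animals, and Cuffdiff's p-values and q-values, per the file headers. Depth per library is unknown, so no interval or detection floor was computed. The deposited q-values matched Benjamini-Hochberg adjustment over the 18490 tested isoforms to within 5.24e-07, and 9 called transcripts had the smallest p, 5e-05, so q does not rank them.

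Log2 ratios were recomputed from FPKM as DKO over Ctrl. No test across animals was possible, and the labels do not say that the animals were littermates. The transcripts, lists and comparisons were chosen with earlier results of these data known. The rule for naming took every called transcript, the 12 with the highest mean, the 8 largest and 8 smallest log2 ratios among tested transcripts at a mean of at least 1 FPKM, up to 6 per noncoding RNA list and those nearest the threshold. Some that the rule takes are not printed. The nearest coding gene was taken by listed loci, which Cuffdiff can join for overlapping genes. Mm9 positions count from 1.

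RefSeq's GRCm38.p6 table gave gene types, start sites and promoter windows. GENCODE M21 transcripts of pseudogenes were aligned to coding transcripts with blastn 2.17.0+. The selection, ratio and motif code was tested on simulated data. Alternatives changed the q, fold, level and length limits, the pseudocount, the scaling and the feature level. Python 3.11.15, pandas 2.3.3, numpy 2.4.6 and matplotlib 3.10.9 were used.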

Additional observations from a re-analysis of the deposited data

How the results depend on the processing

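Counts of 4 higher and 9 lower noncoding transcripts stayed within 1.5 times under a q under 0.01 (3 and 6), a fold of at least 1.3, a mean of at least 1 FPKM, no level minimum, a length of at least 500 bases, exact reference matches only, genes without a coding reference, and transcription start site groups (5 and 10). The fold, length, exact match and coding reference settings can only remove called transcripts. They removed none and repeat no test. At the gene level the counts were 13 higher and 14 lower. There fewer features are tested, 8 of the called genes have a coding reference, and some totals hold isoforms outside the set. With lncRNA genes alone, a choice made after seeing the data, the lower count was 5, since the 2 pseudogenes and 2 transcripts without a RefSeq entry drop out. The median log2 ratio stayed between -0.03 and -0.01 in all settings run. The 13 called transcripts were also called, in the same direction, at the gene and start site levels, where they have the same FPKM as sole isoforms. Adding 1 FPKM and rescaling repeat no test, so they bear on the size of a ratio alone. Of 58 named transcripts, 15 uncalled and 1 called ratio (2900052N01Rik) moved by over 1.5 times with 1 FPKM added. At the gene level 16 uncalled ratios moved, and at the start site level 12, where other isoforms are summed, in some with a change of sign.

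No paired analysis was possible because the tables hold 1 pooled value per genotype. Leaving out single animals was not possible for the same reason. FPKM and q are those of Cuffdiff, so nothing here measures the spread between the 4 animals of a genotype, and transcripts under 1 FPKM were seldom tested.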
